A study of Mus musculus with 2 samples.

Results

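The genes of 8 integrin subunits and of 2 integrin ligands were examined in mouse CD8 T cells after 24 hours of stimulation. They were Itgal, Itgb2, Itga4, Itgb7, Itgb1, Itga6, Itgav and Itgb3, with the ligand genes Icam1 and Icam2. They were taken from the deposited table by gene symbol, with the most abundant transcript row standing for each gene, and all 10 were found among 24013 gene symbols. A single library came from wild-type C57BL/6 mice aged 7 weeks and a single one from C57BL/6 mice of genotype DGK{zeta}-/- aged 6 weeks, which lack diacylglycerol kinase ζ (DGKζ). In both, kit-isolated naive CD8 T cells of the spleen were stimulated by anti-CD3 and anti-CD28 coated on plates. The labels do not give the number of animals behind a library, their sex, or the exons deleted. The design compares stimulated CD8 T cells of the 2 genotypes.

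Integrins are receptors made of 1 α and 1 β subunit that hold T cells to other cells and to extracellular matrix. On T cells, αLβ2 (LFA-1) binds the ICAM proteins, α4β1 (VLA-4) binds VCAM-1 and fibronectin, and α4β7 binds MAdCAM-1 on vessels of the gut. Their affinity is raised by signals from the T cell receptor through Rap1, talin and kindlin-3, and DGKζ limits the diacylglycerol that feeds this signalling by phosphorylating it.

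The values are normalized counts, that is reads divided by 1 size factor per library. A single read was worth 0.583 normalized counts in the wild-type and 1.71 in the deficient library, which held 37211969 and 13464169 reads over 1 row per gene. Since each genotype is a single library, differences cannot be set against a spread between replicates, and no test across samples was possible. Each fold of a single gene is given with an exact 95% interval (Clopper-Pearson) that covers counting error only. For ratios between genes the 95% interval is a normal approximation on the log odds ratio of their read counts, and it too covers counting error only. The log2 ratio is log2((deficient + 10)/(wild type + 10)), which understates differences of low genes. A gene was compared where its mean reached 50 normalized counts, and it is called where its log2 ratio reached 1 or -1. Of 10518 genes compared, 2.60% were called, and the median log2 ratio was 0.055 with quartiles at -0.14 and 0.22. The targeted gene Dgkz was checked first, with 6714 normalized counts (wild type) against 2591, a 2.59-fold lower level in the deficient library (2.46 to 2.74). Xist was read at 14.0 and 9206, so the libraries also differed in sex, and genotype, age and sex cannot be told apart.

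The 8 markers of CD8 T cells were abundant, summing to 49542 normalized counts in the wild-type and 43176 in the deficient library. They had a median log2 ratio of -0.24, with 5 below 0 (Cd3g lowest at -0.87, Cd8a at -0.63) and Cd2, Cd5 and Thy1 above 0. Among markers of other cells, all 9 B cell genes were compared and all had a log2 ratio below 0, with a median of -0.77 and summed levels of 3071 and 2255. The 3 CD4 T cell markers summed to 489.8 and 422, with Cd4 at 171 and 53.2, Foxp3 at 262 and 321 and Zbtb7b at 57.1 and 48.0. The 6 platelet markers summed to 70.6 and 34.3 and the 5 endothelial markers to 1030.3 and 679, of which Pecam1, which T cells also express, made up 1015 and 676. In the deficient library Pf4, Ppbp, Gp9, Gp1bb, Kdr, Emcn, Ncr1, Klrb1c, Klra8, Cd14, S100a9, Elane and Mpo had 0 reads, and in the deeper wild-type library they had from 0 (Elane) to 11 (Mpo). The 6 markers of NK and innate-like cells summed to 1001 and 773, nearly all from Klrd1 (395 and 134) and Klrk1 (587 and 633). The 8 myeloid markers summed to 286 and 274, and the 4 neutrophil markers found to 13.4 and 1.71. The 3 erythroid markers summed to 63.0 and 58.3. Of these, Hbb-b1 (18.7 and 1.71) and Hba-a1 (10.5 and 1.71) were lower in the deficient library and Alas2 (33.8 and 54.9) higher. B cells express several of the integrins described here, and the part of other cells in the differences below was not tested. In such bulk libraries, fewer cells of a type and less RNA per cell cannot be told apart.

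Of the 10 genes, Icam1 and Itgb1 were read higher in the deficient library and most of the other integrin subunits somewhat lower. All 10 reached the mean of 50 in both libraries together, and Itgb3 alone rested on fewer than 200 reads in a library. None was called (0 higher, 0 lower), where 2.60% of all genes compared were. At a lower threshold of 1.5-fold, Icam1 and Itgb1 (2 of 10) were past it upward and 0 downward. Of all genes compared, 4.53% were past it upward and 5.07% downward, 9.59% together. Their log2 ratios ran from -0.47 to 0.97 with a median of -0.15. In all, 3 were above 0 and 7 below, while 58.2% of the genes compared were above 0. Relative to the quartiles of all genes, 2 of the 10 lay above, 3 inside and 5 below.

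**Figure D1:**
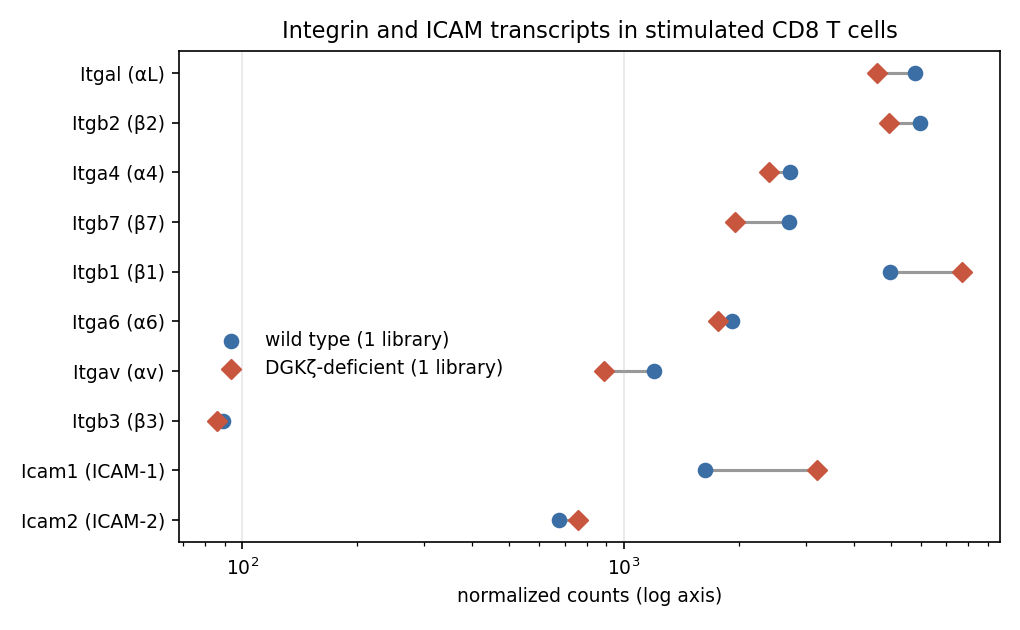
Normalized counts (log axis) of the 10 genes in the wild-type library (circles) and the DGKζ-deficient library (diamonds), 1 library each. Icam1 moves from 1633 to 3205 and Itgb1 from 4976 to 7716, while Itgal, Itgb2, Itga4, Itgb7, Itga6 and Itgav lie lower in the deficient library and Itgb3 is the least abundant in both.

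The subunits of LFA-1 were both lower in the deficient library, and by nearly the same factor. Itgal encodes αL (CD11a), the α subunit that binds ICAM proteins. Its level was 5787 normalized counts in the wild type and 4617 in the deficient library, 1.25-fold lower (1.20 to 1.31), with a log2 ratio of -0.33. Its 4 transcript rows held identical values, so they give no view of its isoforms. Itgb2 encodes β2 (CD18), the partner of αL and of the myeloid α subunits. It stood at 5967 and 4943, 1.21-fold lower (1.16 to 1.26), with a log2 ratio of -0.27. Among the log2 ratios of all genes compared, Itgal was at percentile 12.6 and Itgb2 at percentile 15.5. The ratio of Itgal to Itgb2, per kilobase of transcript, was 0.554 in the wild-type and 0.534 in the deficient library. These differed by a factor of 0.963, with an interval of 0.908 to 1.02 that includes 1.

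The pair of α4β7 was also lower, β7 more than α4. Itga4, the α subunit of both α4β1 and α4β7, was read at 2722 and 2398, 1.14-fold lower (1.07 to 1.21). Itgb7 was read at 2712 and 1955, 1.39-fold lower (1.30 to 1.48). Its log2 ratio of -0.47 was the lowest of the 10 genes and lay at percentile 7.46. Per kilobase, Itga4 stood to Itgb7 at 0.276 in the wild-type and 0.337 in the deficient library, a factor of 1.22 (1.12 to 1.33). A 127-base stretch of Itga4 exons overlaps Cerkl on the opposite strand in the GENCODE M21 annotation (GRCm38), and the library kit does not mark strand.

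Itgb1 went the other way. It encodes β1 (CD29), the common partner of α4, α6, αv and other α subunits in the receptors for fibronectin, laminin and VCAM-1. Its level was 4976 normalized counts in the wild type and 7716 in the deficient library, 1.55-fold higher (1.5 to 1.61), with 8533 and 4499 reads behind these values. Its log2 ratio of 0.63 lay at percentile 96.1, with 405 of the genes compared above it. Itga6, whose product pairs with β1 as a laminin receptor, was nearly level at 1924 and 1766, 1.09-fold lower (1.02 to 1.17). Both of its transcript rows gave like values, with log2 ratios of -0.12 and -0.13. None of its α partners among the 10 genes was read higher. Itga4 per Itgb1 was 0.214 in the wild-type and 0.121 in the deficient library, 1.76-fold lower (1.64 to 1.89). For Itga6 per Itgb1 the values were 0.342 and 0.203, 1.69-fold lower (1.56 to 1.83).

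Both β1 and β7 pair with α4, and their balance differed between the libraries. Per kilobase, the wild-type library held 1.29 Itgb1 transcripts for each Itgb7 transcript and the deficient library 2.78, a factor of 2.15 (2.0 to 2.32). Set against Itgb2 in the same way, Itgb1 stood at 0.649 and 1.22, a factor of 1.87 (1.77 to 1.98). Ratios taken within a library do not depend on the size factors. They are ratios of RNA, and surface protein was not measured.

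The subunits of αvβ3 (the vitronectin receptor) were the least abundant. Itgav, whose product binds RGD-containing ligands and can release active TGF-β, was read at 1196 and 888, 1.35-fold lower (1.22 to 1.49), at percentile 8.93. Itgb3, abundant on platelets, was read at 89.2 and 85.7, from 153 and 50 reads. Its fold of 0.961 has an interval from 0.684 to 1.33, so a difference was not detectable at this depth. Among the platelet markers, Itga2b, the platelet partner of β3, was at 24.5 and 3.43. Pf4 had 1 read in the wild-type and 0 in the deficient library. Gp1ba, the most abundant of these markers, was at 37.9 and 30.9, with a fold of 0.814 (0.455 to 1.39).

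Icam1 had the largest difference of the 10 genes. Icam1 encodes ICAM-1 (CD54), an LFA-1 ligand that activated lymphocytes also carry. Its level was 1633 normalized counts in the wild type and 3205 in the deficient library, 1.96-fold higher (1.85 to 2.08), from 2801 and 1869 reads. The log2 ratio of 0.97 fell just short of the call at 1, at percentile 98.6, and 143 of the genes compared were above it. Icam2, the ligand that resting lymphocytes and endothelium carry, was read at 678 and 758, with a log2 ratio of 0.16. Its fold of 1.12 had an interval of 1.0 to 1.25. The lower bound is -0.0006 on a log2 scale, so the interval just includes no difference. Per kilobase, Icam1 stood to Icam2 at 1.22 and 2.14, a factor of 1.76 (1.55 to 1.99). In the GENCODE annotation 511 bases of Icam1 exons overlap the antisense gene Gm47079, where the matched Icam1 transcript has 2535 bases. Reads of the pair cannot be told apart within that overlap.

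**Figure D2:**
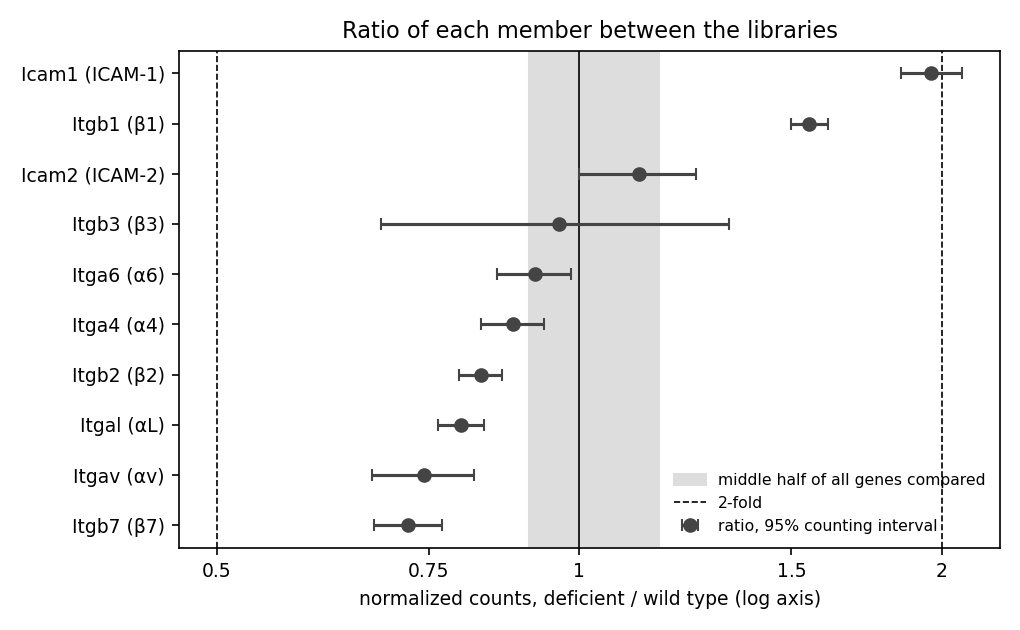
Ratio of normalized counts, deficient over wild type (log axis), with 95% counting intervals, for the 10 genes in order. The grey band spans the quartiles of all genes compared (-0.14 to 0.22 as log2 ratios) and dashed lines mark 2-fold; Icam1 (1.96) and Itgb1 (1.55) lie above the band and Itgb7 (0.721) lowest.

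The promoters of the 2 genes read higher and of the lowest gene are shown, since the transcripts differ most between them. RefSeq promoter windows (build GRCm38.p6) matched 5 of the 10 genes, and the 250 bases before the annotated start were searched on both strands. The motifs were the 9-base κB form GGNNNTTCC, the interferon-γ-activated site TTCNNNGAA, the AP-1 site TGANTCA and the GC box GGGCGG. Capitals mark every match in the sequences below. They lie at chr9:21015690-21015939 (plus strand) for Icam1, chr8:128685404-128685653 (plus strand) for Itgb1 and chr15:102231936-102232185 (minus strand) for Itgb7, each written 5′ to 3′ along the gene.
Icam1: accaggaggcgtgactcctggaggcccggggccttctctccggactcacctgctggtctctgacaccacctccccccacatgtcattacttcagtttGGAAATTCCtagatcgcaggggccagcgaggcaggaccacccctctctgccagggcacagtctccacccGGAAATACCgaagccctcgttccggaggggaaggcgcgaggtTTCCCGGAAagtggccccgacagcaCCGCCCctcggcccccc
Itgb1: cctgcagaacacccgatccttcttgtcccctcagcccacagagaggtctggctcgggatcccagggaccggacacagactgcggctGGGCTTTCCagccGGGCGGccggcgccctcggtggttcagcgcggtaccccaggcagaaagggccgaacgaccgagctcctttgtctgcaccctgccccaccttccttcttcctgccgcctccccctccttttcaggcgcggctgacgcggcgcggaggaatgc
Itgb7: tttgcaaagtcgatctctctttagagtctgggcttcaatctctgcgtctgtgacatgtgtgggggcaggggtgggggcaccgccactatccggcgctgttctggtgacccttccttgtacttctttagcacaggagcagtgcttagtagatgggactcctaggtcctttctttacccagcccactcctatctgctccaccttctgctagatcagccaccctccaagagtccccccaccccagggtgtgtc

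The Icam1 window held 2 matches to the 9-base κB form, GGAAATTCC starting 153 bases and GGAAATACC starting 84 bases before the gene start. The first of them reads as a match on both strands. A match to the interferon-γ-activated site, TTCCCGGAA, began 42 bases and a GC box 17 bases before the start. In Itgb1 a 9-base κB match, GGGCTTTCC, began 164 bases and a GC box 151 bases before the start. Itga4 held 1 GC box, and the windows of Itgb7 and Itgav held none of these letters. Over 32851 windows of the same length, 15.7% held the 9-base κB form, 7.02% the interferon-γ-activated site, 32.7% the GC box and 6.75% the AP-1 site. The AP-1 letters were in none of the 5 windows. No matches overlapped. A match describes letters and does not show binding.

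**Figure D3:**
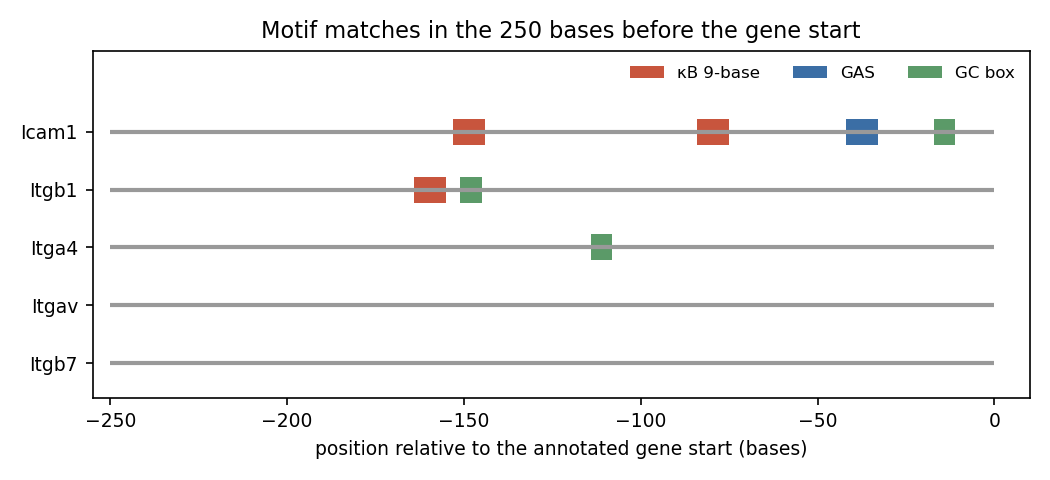
Positions of motif matches in the 250 bases before the annotated start (horizontal axis, bases) of the 5 genes with a RefSeq window. Icam1 carries 2 κB matches, the GAS match (interferon-γ-activated site) and a GC box, Itgb1 a κB match and a GC box, Itga4 a GC box, and Itgav and Itgb7 none.

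Levels of different genes were compared per kilobase, with the GENCODE length of the matched RefSeq transcript. In the wild-type library Itgb2 led with 2009 normalized counts per kilobase. Itgb1 (1304), Itgal (1114), Itgb7 (1011), Icam1 (644) and Icam2 (529) followed. The lowest were Itga6 (446), Itga4 (279), Itgav (169.5) and Itgb3 (15.4). In the deficient library Itgb1 was first with 2022 and Itgb2 second with 1664, and Icam1 (1264) stood above Itgal (889) and Itgb7 (729). The order of the other five was unchanged, from Icam2 at 591 through Itga6 (409.8), Itga4 (245) and Itgav (126) to Itgb3 at 14.8. No neighbours in either order had overlapping counting intervals, but how far animals differ was not measured.

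The β pool changed its make-up more than the α pool. Of the normalized counts per kilobase of all 9 β subunit genes, Itgb2 held 46.1% in the wild-type and 37.4% in the deficient library. Itgb1 held 29.9% and 45.5%, and Itgb7 23.2% and 16.4%. The share of Itgb3 was 0.354% and 0.333%. Among 16 α subunit genes with a matched length, Itgal held 53.0% and 51.2%, Itga6 21.2% and 23.6%, Itga4 13.2% and 14.2%, and Itgav 8.06% and 7.26%. Itgae and Itga10 had no matched length and are not in these shares.

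**Figure D4:**
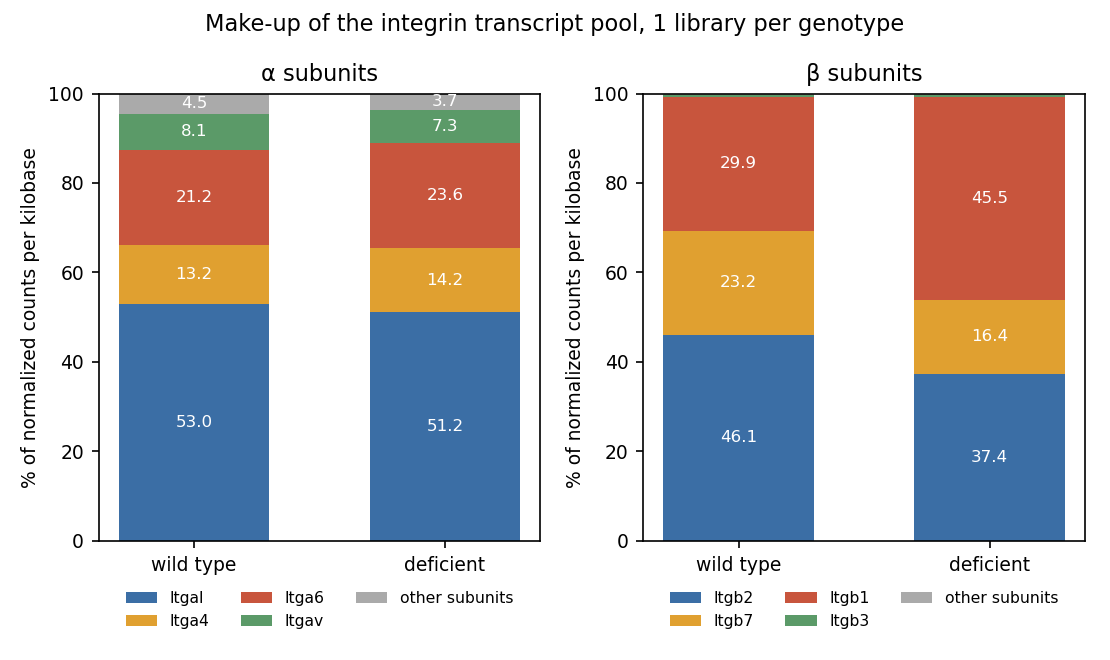
Share (%) of each subunit in the normalized counts per kilobase of the α (left) and β (right) integrin genes, 1 library per genotype. The Itgb1 segment is 29.9% in the wild-type and 45.5% in the deficient library, while the α segments differ by less than 3 percentage points.

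Of the 19 other integrin subunit genes, 15 had means under 50 normalized counts. Of the 4 compared 0 were called, where 2.60% of all genes compared were, and their median log2 ratio was -0.36. Itgae encodes αE (CD103), which pairs with β7 and binds E-cadherin. It was read at 159 and 84.0, 1.89-fold lower (1.39 to 2.61), so both subunits of αEβ7 were lower in the deficient library. Itga5, the fibronectin receptor subunit, had a log2 ratio of -0.38 and Itgb4 a log2 ratio of -0.33. Of 15 other integrin ligand genes 5 were compared and 0 called, and the median was -0.57, which became -0.05 at a minimum mean of 200. Amica1 (Jaml, an adhesion receptor), the second most abundant of the 5, was read higher at 546 and 763, with a log2 ratio of 0.47. The largest differences by size were those of Jam2 (-0.81, at 70.6 and 36.0 normalized counts), Emilin1 (-0.64) and Tgfb1 (-0.57), whose latent form is an αv ligand. Vcam1 and Madcam1, the ligands of α4 integrins, were read at 6.41 and 0, and at 5.25 and 10.3.

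The list of genes that act on integrin activation holds both activators and genes known to restrain Rap1 or integrins, such as Sipa1, Sharpin and Cytip. Of 32 listed, 29 were compared and 0 called, 5 had a log2 ratio above 0 and 24 below, and the median was -0.22 against 0.055 for all genes. Members of both kinds were below 0, among the restraining genes Cytip (-0.40), Sipa1 (-0.37) and Sharpin (-0.11). Of the 5 genes above 0, Rap1gap2 (0.30) and Dok1 (0.27) also belong to the restraining kind. Prkd2 (protein kinase D2) was read at 1757 and 1017, 1.73-fold lower (1.58 to 1.89). Rap1a, a Rap1 GTPase, was read at 2286 and 1499, 1.52-fold lower (1.42 to 1.64), and Tln2 had a log2 ratio of -0.52. Tln1, Fermt3, Rap1b and the restraining genes named were picked after their values were seen, for their roles. Tln1 (talin, 12261 and 10039.5) and Fermt3 (kindlin-3, 6556 and 5363) both had a log2 ratio of -0.29, at percentile 14.4. Rap1b had a log2 ratio of -0.07.

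Genes of the adhesion complex behind integrins had members in both directions. Of 32 listed 28 were compared and 0 called, where 2.60% of all genes compared were called. In this list 12 were above 0 and 16 below, with a median of -0.076. Ptk2 (focal adhesion kinase) was read at 254 and 430.5, 1.69-fold higher (1.44 to 1.98). Its relative Ptk2b (Pyk2) had a log2 ratio of -0.59, and Zyx (zyxin, 1859 and 1108) was 1.68-fold lower (1.54 to 1.83). Of 17 other adhesion receptors all were compared and 1 was called, where 2.60% of all genes compared were. Their median was 0.0055, against 0.055 for all genes. Cd44, the hyaluronan receptor, was called, at 1302 and 3557, 2.73-fold higher (2.57 to 2.90). Cd82, a tetraspanin, followed at 1972 and 3593, 1.82-fold higher (1.72 to 1.92), and Pecam1 had a log2 ratio of -0.58.

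Icam1 is known as a target of both NF-κB and interferon-γ. Other targets of each were listed on its account, with earlier results of these data known. Of 18 other NF-κB target genes, all compared, 3 were called higher and 0 lower, and 17 were above 0, with a median of 0.52. Among all genes compared, 1.30% were called higher, 1.29% lower and 58.2% were above 0. Those called were Cd83 (2.77-fold, 2.47 to 3.09), Lta (2.06-fold, 1.92 to 2.22) and Nfkbia (2.01-fold, 1.90 to 2.12), and the lowest was Bcl3, with a fold of 0.921. Of 15 interferon-γ target genes, all compared, 12 were above 0 and 3 below, with a median of 0.15, 0 called higher and 1 lower. Ciita, which B cells express constitutively, was called lower at 90.4 and 39.4, and Iigp1 and Irgm1 had log2 ratios of 0.52 and 0.31. Irf1 is on both lists, with a log2 ratio of 0.16. The lists overlap in their values, the difference between them was not tested, and whether either pathway bears on Icam1 was not tested.

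**Figure D5:**
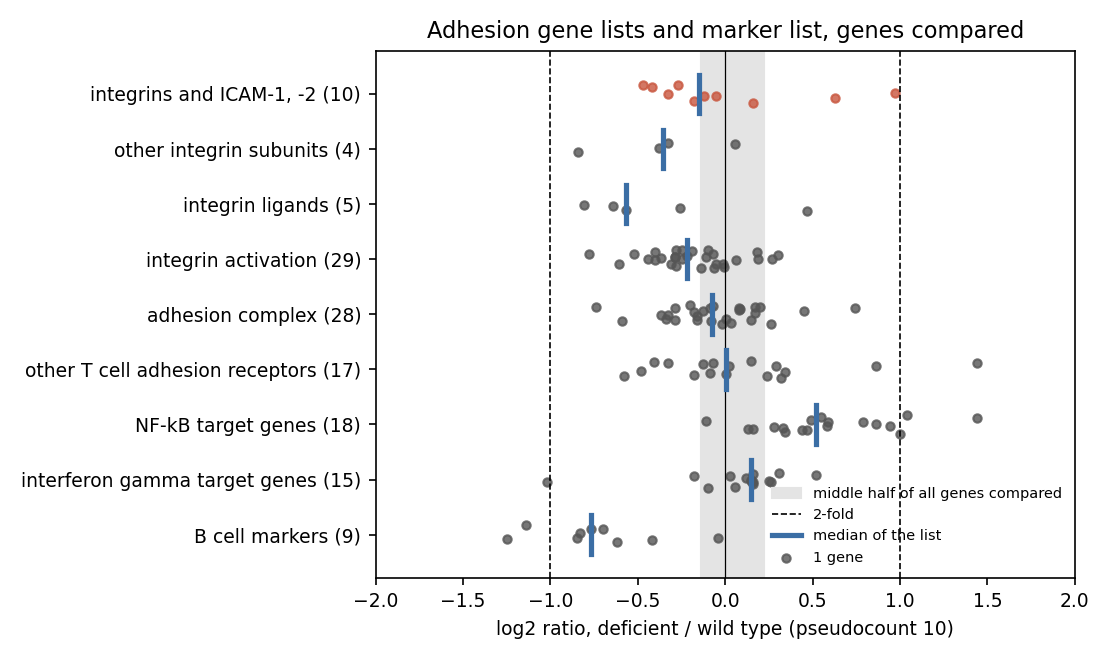
Log2 ratios (deficient over wild type, pseudocount 10) of the genes compared in each list, with the number of genes in brackets, a bar at each median and the quartiles of all genes in grey. The integrin activation genes centre on -0.22 and the NF-κB targets on 0.52, and the integrin and ICAM genes spread from -0.47 to 0.97.

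For all 10 genes the authors' deposited table gives log2 fold changes of the same sign and smaller in size than the log2 ratios above. For Dgkz the gap is wider, with -0.20 (p-value 0.305) in the authors' deposited table against a log2 ratio of -1.37 here. For Icam1 the authors' deposited table lists a log2 fold change of 0.61 with a p-value of 0.0181, and for Itgb1 0.45 with 0.0625. In the authors' deposited table Itgb7 has -0.34 with 0.157 and the remaining 7 have p-values from 0.235 (Itgav) to 0.939 (Itgb3). The adjusted p-value there is 0.999 for each of the 10. With 1 library per genotype these p-values do not rest on replicates.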

How the data were processed

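RNA sequencing libraries of stimulated splenic CD8 T cells, 1 per genotype, were analysed. The submitters' processing notes name STAR (version 2), DESeq and the build mm9. What each did, the counting program and the annotation were not given in the sources used here. In the authors' table each RefSeq transcript row has a signal per library, its normalized count. Dividing by the smallest non-zero value gave whole numbers for 100.0% of rows in each library (relative tolerance 0.0001), so whole reads were recovered, with size factors of 1.71 (wild type) and 0.583 (deficient). The authors deposited a second table with log2 fold changes, a test score (not used here) and p-values.

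Of 33018 rows, 1 with shifted values was left out, and the row with the highest mean stood for each of 4911 genes with several rows. With 1 library per genotype edgeR's quasi-likelihood test has 0 residual degrees of freedom, so it gives no calls on these reads, and no test was made. Computation used Python 3.11.15, NumPy 2.4.6 and SciPy 1.17.1, tested on simulated counts. Without molecular identifiers, reads need not be separate molecules, and intervals cover counting error only. The members, lists and thresholds were chosen with earlier results of these data known. The rule names all 10 members, Dgkz and, in each list, the called genes and the 3 compared genes with the largest absolute log2 ratio. Other genes named were chosen after their values were seen: Xist and the cell type markers given as values, Vcam1, Madcam1, Amica1, Irf1, Bcl3, Tln1, Fermt3, Rap1b, Cytip, Sipa1, Sharpin, Rap1gap2 and Dok1. Alternatives varied the pseudocount, scaling, minimum, transcript row and threshold.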

Additional observations from a re-analysis of the deposited data

How the results depend on the processing

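Across pseudocounts of 1 and 50, equal library totals, recentring on the median of all genes, summed transcript rows and other transcript rows, 3 of the 10 genes (Icam1, Itgb1 and Icam2) stayed above 0 and the other 7 below. With equal totals the log2 ratios were 0.88 for Icam1, 0.54 for Itgb1, -0.27 for Itga4, -0.41 for Itgal and -0.36 for Itgb2, and the adhesion complex had a median of -0.17; the median of all genes moved from 0.055 to -0.033. After recentring Itgb1 stood at 0.58. The lists of other adhesion receptors, NF-κB targets, interferon-γ targets and cell type markers were not recomputed under these alternatives. At a 1.5-fold threshold, 2 of the 10 genes were higher, the adhesion complex had 1 higher and 2 lower, the activation and ligand lists 2 lower each, and the other integrin subunits 1 lower. Of all 10518 genes compared, 476 were higher and 533 lower at that threshold. With summed rows the ligands and the other subunits had 1 called lower each, against 177 of all 10789 genes compared. With no minimum they had 1 and 2, against 375 of 21610. The 2 subunits were Itga2b (42 reads in the wild-type and 2 in the deficient library) and Itgam (27 and 1), so they rested on few reads. The ligand median was -0.05 at a minimum mean of 200. Of 166 values recomputed, 148 moved by less than counting error or, for counts of genes, stayed within 1.5 times, and 18 moved more. Only 2 of the 10 genes had several transcript rows, and those of Itgal were identical. For the single-row genes, summing rows could not change the ratio, so part of the 148 was fixed in advance. For low genes such as Itgb3 the depth of the deficient library limits precision. No paired analysis was possible because each genotype has a single library.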
